A study of Mus musculus with 9 samples.

Results

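The 10 transcription factors Eomes, Tbx21, Id2, Id3, Tcf7, Lef1, Bach2, Foxo1, Prdm1 and Zeb2, which set the naive, memory and effector states of CD8 T cells, were followed in every sample of the Rop7-I, -II and -III T cells. They were chosen by name for their roles, and each of the 10 symbols was found among the 24060 genes of the table. RNA-seq had been performed on 9 samples, 3 biological replicates for each of 3 clones. Each clone came from a transnuclear mouse line, made by transferring the nucleus of 1 mature CD8 T cell that recognized the Rop7 peptide of Toxoplasma on the MHC class I molecule H-2Ld, and bred on a BALB/c background. The cells sequenced were homozygous for the T-cell receptor (TCR) chains of their line according to the study's text, and the age of the mice is not given in the sources used here. Splenocytes of all 3 lines spent a night in culture with 10 ng per ml of IL-2 and no antigen. The CD3+ CD8+ fraction binding H-2Ld-Rop7 tetramers was then taken by cell sorting, at 90 to 95% purity. As each clone is 1 mouse line, the TCR and anything else that the line carries cannot be told apart. The comparisons asked whether naive clones with the same specificity, but different TCRs and different reactivity to self, differed in these factors before they met antigen.

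The factors work in opposed groups. TCF-1 (encoded by Tcf7), LEF1, FOXO1, BACH2 and ID3 are associated with naive and long-lived memory cells, in which FOXO1 sustains genes of survival and lymph node homing and BACH2 holds back effector genes. T-bet (Tbx21), ID2, BLIMP-1 (Prdm1) and ZEB2 drive effector cells, and EOMES, a T-box relative of T-bet, is associated with memory and with the memory-like cells that arise without foreign antigen. ID2 and ID3 bind no DNA themselves: they pair with E proteins and keep these off DNA.

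Values were TPM (transcript abundance scaled to a common total), which are divided by gene length, so that levels of different genes could be set side by side. The number of reads behind a value cannot be read from TPM, so that no counting error is given. Between 11056 and 11494 genes per sample were above 1 TPM, and the markers of CD8 T cells summed to between 6570 and 7290 TPM in all samples. The libraries of 2 samples stood apart. In Rop7-II replicate 1, 12 of 12 B cell markers and 10 of 10 myeloid markers were at their highest of all samples. Its summed B cell markers were at 835 TPM, against 61.9 to 376 TPM in the other samples. Its summed myeloid markers were at 619 TPM, against 39.7 to 207 TPM in the other samples, of which the 207 TPM belonged to Rop7-II replicate 3. In Rop7-I replicate 2, the 7 erythroid markers summed to 2440 TPM, against 27.2 to 481 TPM in the other samples. Values of the factors that rest on either library are given with and without it where a fit could be made.

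Ordered by mean level, the factors ran from Tcf7 at 2340 TPM, 55th among all genes of the table, to Tbx21 at 0.164 TPM. Lef1 was next to Tcf7 at 755 TPM, followed by Foxo1 at 132 TPM, Bach2 at 95.2 TPM, Id2 at 74.7 TPM, Id3 at 20.4 TPM, Eomes at 7.76 TPM, Prdm1 at 2.69 TPM and Zeb2 at 0.757 TPM. The factors of naive cells were thus above those of effector cells, with the exception of Id2, which stood above Id3 in all 9 samples. In the upper part of this order, the ranges of neighbours over the 9 samples were separate for Tcf7 and Lef1, Lef1 and Foxo1, Foxo1 and Bach2, and Id2 and Id3. They overlapped for Bach2 and Id2, where 7 of 9 samples kept the order, for Id3 and Eomes (7 of 9) and for Eomes and Prdm1 (6 of 9). They also overlapped for Prdm1 and Zeb2 (9 of 9) and for Zeb2 and Tbx21 (8 of 9).

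**Figure D1:**
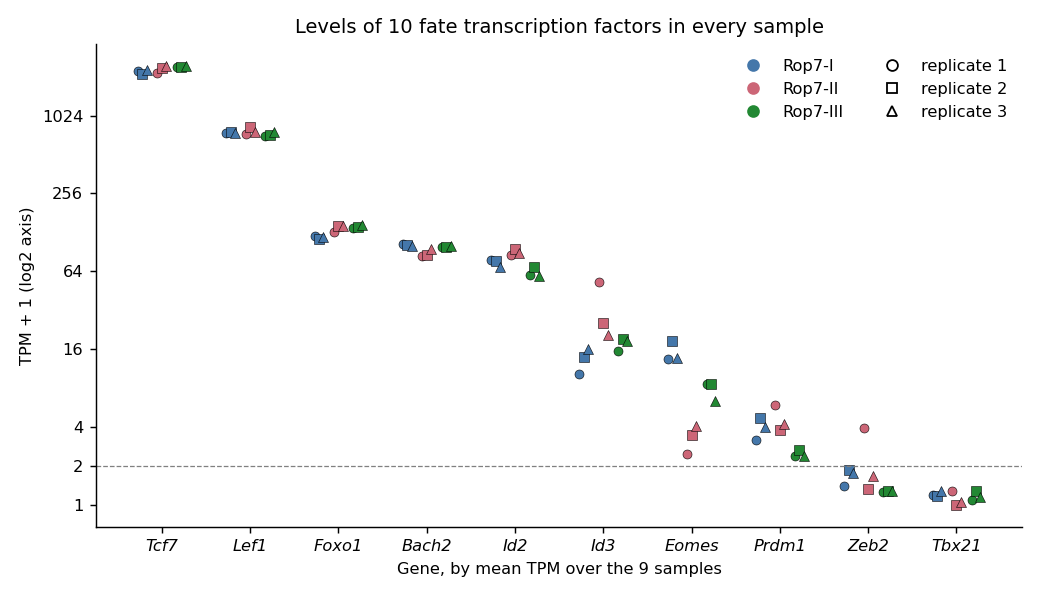
Levels of the 10 factors in every sample, plotted as TPM + 1 on a log2 axis, with genes ordered by their mean over the 9 samples, colours for clones and symbols for replicate numbers (circle 1, square 2, triangle 3). The dashed line marks 1 TPM. Tcf7 and Lef1 are high and alike in the 3 clones, Eomes separates the clones, and Tbx21 lies under the line in all samples.

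Clones were compared as log2(TPM + 1) with limma across the 12115 genes whose highest value exceeded 1 TPM, and a gene was called at a Benjamini-Hochberg adjusted p under 0.01. Every fold change below is on the log2(TPM + 1) scale, which understates differences of genes near 1 TPM. Of the 10 factors, 9 passed the filter on low values, and Tbx21 did not. P values set the differences between clone means against the spread between samples of the same clone. The labels call the samples biological replicates without saying whether they came from separate mice, so that this spread may not be one between mice.

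Among the T-box factors, Eomes differed most between clones. It stood at 12.35, 17.46 and 12.59 TPM for Rop7-I T cells, 1.49, 2.45 and 3.07 TPM for Rop7-II T cells, and 7.62, 7.55 and 5.3 TPM for Rop7-III T cells. The 3 clones did not overlap: all Rop7-I samples were above all Rop7-III samples, and these above all Rop7-II samples. The means were 14.1 ± 2.88, 2.34 ± 0.796 and 6.82 ± 1.32 TPM (SD, n = 3). Eomes was higher in Rop7-I than Rop7-II T cells by 2.19 (standard error 0.21, adjusted p = 0.000188), and this call was kept under each of the 23 alternative settings tried. Rop7-III exceeded Rop7-II T cells by 1.24 (standard error 0.21, adjusted p = 0.00262), with values of 0.99 to 1.54 over the alternatives. This call rested on few samples, as the adjusted p was 0.0138 without Rop7-III replicate 1 and 0.0134 without Rop7-III replicate 2. It was 0.0256 with the myeloid markers as a covariate, and 0.00418 without Rop7-II replicate 1. For Rop7-III versus Rop7-I T cells the fold change was -0.95 with an adjusted p of 0.0174, which misses the limit. It passed without Rop7-II replicate 1 (adjusted p = 0.00546), with sample weights (adjusted p = 0.0055) and with only these 2 clones fitted (adjusted p = 0.00559). The highest Eomes value belonged to Rop7-I replicate 2, the library with the most erythroid transcripts. Without it Rop7-I exceeded Rop7-II T cells by 2.04 (adjusted p = 0.00112), and Rop7-III against Rop7-I T cells gave -0.8 (adjusted p = 0.0648).

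Eomes and the summed markers of memory-like CD8 T cells were both lowest in Rop7-II T cells but had different highest clones. Summed over 8 markers, these were at 439 to 636 TPM for Rop7-III, 360 to 373 TPM for Rop7-I and 255 to 308 TPM for Rop7-II T cells, and were thus highest where Eomes was intermediate. Most of each sum was Klrd1, at means of 373, 255 and 178 TPM in the same order, so that the order of the sums is largely that of this gene. Il2rb, the next in level, was at means of 90.1, 78.6 and 80.1 TPM. Of the 8 markers, 4 were called higher in Rop7-III than Rop7-II T cells (Ccl5, Cxcr3, Klrd1 and Klrk1), beside 6.39% of all genes. In Rop7-III against Rop7-I T cells 1, Ccl5, was called higher, beside 2.58% of all genes. Cd44, Il2rb, Ly6c1 and Ly6c2 were not called in any pair. Ly6c2 had its highest mean in Rop7-II T cells, at 4.51 TPM against 3.17 TPM for Rop7-III and 2.06 TPM for Rop7-I T cells. The part of memory-like cells in the Eomes difference was not tested. In bulk RNA, fewer cells with a transcript and less of it per cell cannot be told apart.

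The Eomes gene lies at chr9:118478212-118486132 (GRCm38, plus strand). It was the 1 factor of the 10 with a gene called at least 2-fold in any pair within 1 Mb of it: Itga9, an integrin subunit, 121 kb away. Within 1 Mb, 13 genes were tested for Eomes and 3 to 38 for each of the 10 factors. Of 11488 tested genes with a position, 287 were called at least 2-fold in any pair. Whether Eomes lies in a longer stretch of genes that differ between the clones was not tested. Itga9 stood at 4.2 ± 1.18 TPM for Rop7-I, 2.59 ± 0.436 TPM for Rop7-II and 12.7 ± 1.91 TPM for Rop7-III T cells (SD, n = 3), an order of clones other than that of Eomes. The sequence before the start of Eomes is shown because this gene carries the largest difference among the factors. It covers chr9:118477939-118478188, 250 bases from RefSeq on the GRCm38.p6 build, written from 5′ to 3′ in the direction of the gene and ending just before the transcription start.
Eomes: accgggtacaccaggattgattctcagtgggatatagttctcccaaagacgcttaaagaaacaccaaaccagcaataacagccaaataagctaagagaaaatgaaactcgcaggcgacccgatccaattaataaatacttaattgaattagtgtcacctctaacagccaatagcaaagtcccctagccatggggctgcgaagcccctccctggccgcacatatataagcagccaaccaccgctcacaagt
It holds no match to any of the 5 motifs described further below, and therefore has no capitals.

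Tbx21, which encodes T-bet, the T-box factor of cytotoxic effector cells, was near 0 in all clones. It stood at 0.19, 0.17 and 0.27 TPM for Rop7-I, 0.27, 0 and 0.06 TPM for Rop7-II and 0.09, 0.28 and 0.15 TPM for Rop7-III T cells. The clones overlapped in each pair, and no test was made. Within a sample, Eomes exceeded Tbx21 by 46.6 to 103 times in Rop7-I and 27 to 84.7 times in Rop7-III T cells, and by 5.52 and 51.2 times in the Rop7-II samples in which Tbx21 was above 0. These ratios have very small values of Tbx21 below the line, so that their spread says little of Eomes.

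Of the Id factors, Id2 was lowest in Rop7-III and highest in Rop7-II T cells. It stood at 77.46, 75.48 and 68.56 TPM for Rop7-I, 84.02, 94.26 and 87.52 TPM for Rop7-II and 58.88, 67.78 and 58.19 TPM for Rop7-III T cells. The samples of the 3 clones did not overlap, although the highest Rop7-III sample lay within 1 TPM of the lowest Rop7-I sample. The means were 73.8 ± 4.67, 88.6 ± 5.2 and 61.6 ± 5.35 TPM (SD, n = 3). Rop7-III was below Rop7-II T cells at -0.52 on the log2 scale (standard error 0.07, adjusted p = 0.000917), a 1.43-fold difference. Among the alternatives, only the demand for a 2-fold difference removed this call, and the fold change stayed between -0.62 and -0.47. Rop7-I T cells lay between the others, at -0.26 against Rop7-II (adjusted p = 0.0338), and Rop7-III was at -0.26 against Rop7-I T cells (adjusted p = 0.0426), neither of which passed.

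**Figure D2:**
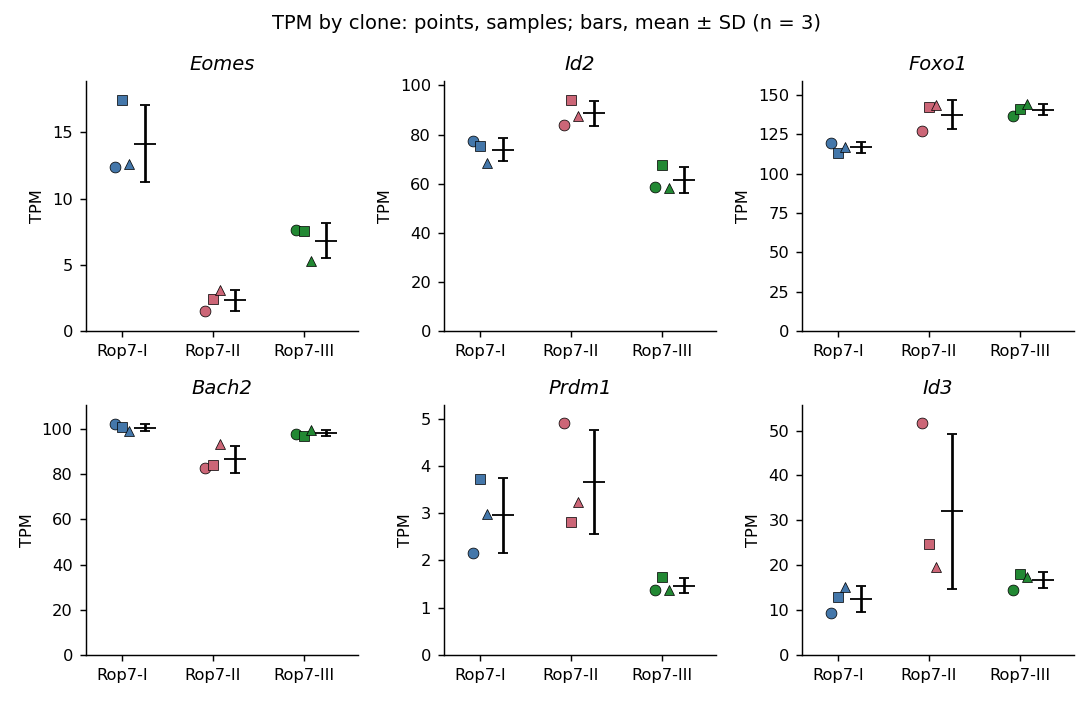
TPM of Eomes, Id2, Foxo1, Bach2, Prdm1 and Id3 by clone on linear axes from 0. Points are samples (circle, square and triangle for replicates 1, 2 and 3), and bars are the mean ± SD (n = 3). Eomes is lowest and Id2 highest in Rop7-II T cells, and Id3 and Prdm1 have their highest sample in Rop7-II replicate 1.

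Id3, the relative of Id2 that is associated with naive and memory cells, passed in no pair. It stood at 9.33, 12.82 and 15.05 TPM for Rop7-I, 51.62, 24.63 and 19.68 TPM for Rop7-II and 14.56, 18.09 and 17.38 TPM for Rop7-III T cells. Rop7-II lay above both other clones in every sample, but its replicate 1, the library with the most B cell and myeloid markers, was more than double its other samples. Rop7-I against Rop7-II T cells gave -1.2 (95% interval -1.88 to -0.52, adjusted p = 0.025). Without Rop7-II replicate 1 it gave -0.8 (adjusted p = 0.0157), with the B cell markers as a covariate -1.36 (adjusted p = 0.000159), and with the myeloid markers -0.9 (adjusted p = 0.0164). Rop7-III against Rop7-II T cells gave -0.78 (adjusted p = 0.0902), and -0.39 without that library (adjusted p = 0.154). It gave -0.44 with the B cell covariate (adjusted p = 0.0387) and -0.16 with the myeloid covariate (adjusted p = 0.691). Rop7-III exceeded Rop7-I T cells by 0.42 (adjusted p = 0.409), a difference that was 0.92 with the B cell covariate (adjusted p = 0.00421) and 0.74 with the myeloid covariate (adjusted p = 0.0462). The part of B cells or myeloid cells in the Id3 values was not tested beyond these fits.

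Relative to Id2 in the same sample, Id3 was at 0.12 to 0.22 in Rop7-I, 0.225 to 0.614 in Rop7-II and 0.247 to 0.299 in Rop7-III T cells. The ratio of all Rop7-I samples was thus below that of all samples of the other clones. Of the genes that Id factors act on or resemble, 4 of 5 were tested and 0 of 4 were called in any pair. Of all genes, 12.3% were called for Rop7-III against Rop7-II, 4.85% for Rop7-III against Rop7-I and 7.53% for Rop7-I against Rop7-II T cells. With 4 genes, a count of 0 does not stand apart from these shares. Tcf3, which encodes the E protein E2A, was at 89.59 to 108.84 TPM over all samples, and Tcf12, the E protein HEB, at 80.15 to 92.78 TPM. Tcf12 had the smallest adjusted p of the group, at 0.0192 for Rop7-III against Rop7-II T cells, a fold change of 0.14.

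Tcf7 and Lef1, the partners of beta-catenin that uphold T-cell identity and the naive state, were steady. Tcf7 stood at 2272.03, 2143.57 and 2284.43 TPM for Rop7-I, 2170.67, 2396.07 and 2477.35 TPM for Rop7-II and 2434.95, 2441.56 and 2465.22 TPM for Rop7-III T cells. Lef1 stood at 744.87, 769.64 and 752.42 TPM for Rop7-I, 731.57, 830.17 and 761.2 TPM for Rop7-II and 710.88, 727.41 and 763.05 TPM for Rop7-III T cells. The clones overlapped in each pair for Lef1 and in 2 of 3 pairs for Tcf7, where all Rop7-III samples were above all Rop7-I samples.

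The coefficient of variation over the 9 samples was 5.48% for Tcf7 and 4.53% for Lef1. The 95% intervals bound the differences: for Tcf7 they ran from -0.05 to 0.17 for Rop7-III against Rop7-II, from 0.02 to 0.24 for Rop7-III against Rop7-I (adjusted p = 0.105) and from -0.18 to 0.04 for Rop7-I against Rop7-II T cells. For Lef1 they ran from -0.18 to 0.03, from -0.15 to 0.06 and from -0.14 to 0.07 in the same order. Within a sample, Lef1 was at 0.328 to 0.359 of Tcf7 in Rop7-I, 0.307 to 0.346 in Rop7-II and 0.292 to 0.31 in Rop7-III T cells.

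Among 9 relatives and cofactors of TCF-1, all tested, 3 were called for Rop7-III versus Rop7-II T cells, beside 12.3% of all genes. With 9 genes, this count is too small to stand apart from that share. Sox4, an HMG box factor, was higher in Rop7-III (43.6 ± 0.75 against 30.5 ± 3.12 TPM (SD, n = 3), fold change 0.5, adjusted p = 0.000813), and also against Rop7-I T cells (0.45, adjusted p = 0.00315). The latter call was lost under 8 of 23 alternatives (adjusted p up to 0.0172), among them each fit without 1 Rop7-I or Rop7-III sample. The corepressors moved by little and in both directions: Tle4 was higher (0.22, adjusted p = 0.00292) and Aes, a short relative of the TLE family, lower (-0.2, adjusted p = 0.00121) in Rop7-III than Rop7-II T cells. Aes (-0.27, adjusted p = 0.000361) and Tle3 (-0.22, adjusted p = 0.00311) were lower in Rop7-I than Rop7-II T cells. The call of Tle4 was lost under 6 alternatives (adjusted p up to 0.0183) and that of Tle3 under 5 (adjusted p up to 0.0166). Ctnnb1, encoding beta-catenin, was at 265.15 to 300.33 TPM and not called.

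Foxo1 was lowest in Rop7-I T cells. It stood at 119.7, 113.24 and 117.12 TPM for Rop7-I, 127.1, 142.06 and 143.36 TPM for Rop7-II and 136.87, 140.88 and 144.07 TPM for Rop7-III T cells. All Rop7-I samples were below all others, whereas Rop7-II and Rop7-III T cells overlapped. The fold change was 0.27 for Rop7-III against Rop7-I T cells (standard error 0.05, adjusted p = 0.00777) and -0.23 for Rop7-I against Rop7-II T cells (adjusted p = 0.0107), so that these similar differences fell on both sides of the limit. The first was lost under 13 of 23 alternatives, including each of the 6 fits without 1 Rop7-I or Rop7-III sample (adjusted p 0.0205 to 0.0345), while its size stayed between 0.2 and 0.29. Without Rop7-II replicate 1, the second passed at -0.29 (adjusted p = 0.00124).

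Of the genes that FOXO1 is known to activate in T cells, Klf2 and Ccr7 had their lowest clone in common with Foxo1, and Il7r and S1pr1 were lowest in Rop7-II T cells. All 4 reported here were tested, and 2, 2 and 3 of them were called for Rop7-III against Rop7-II, Rop7-III against Rop7-I and Rop7-I against Rop7-II T cells, beside 12.3%, 4.85% and 7.53% of all genes. Il7r, the receptor chain for the survival cytokine IL-7, was at 511 ± 32.5 TPM for Rop7-I, 317 ± 16.5 TPM for Rop7-II and 749 ± 20.7 TPM for Rop7-III T cells (SD, n = 3), and Rop7-III exceeded Rop7-II T cells by 1.24 (adjusted p = 1.26e-06). Klf2, a factor of quiescence and migration, was lowest in Rop7-I T cells at 817 ± 48.6 TPM, against 1310 ± 91.8 TPM for Rop7-II and 1170 ± 84.4 TPM for Rop7-III T cells (SD, n = 3).

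Klf2 had fold changes of 0.51 for Rop7-III against Rop7-I (adjusted p = 0.00162, and 0.0106 without Rop7-III replicate 2) and -0.68 for Rop7-I against Rop7-II T cells (adjusted p = 0.000262). Ccr7, a chemokine receptor of lymph node entry, stood at 684 ± 6.83 TPM for Rop7-I, 808 ± 21.8 TPM for Rop7-II and 735 ± 8.72 TPM for Rop7-III T cells (SD, n = 3). Its fold change was -0.24 for Rop7-I against Rop7-II T cells (adjusted p = 0.000522). For Rop7-III against Rop7-II T cells it was -0.14 (adjusted p = 0.00655), a call lost under 15 of 23 alternatives with adjusted p up to 0.0298. S1pr1, the receptor for exit from lymph nodes, was not called in any pair, at 787.85 to 889.53 TPM for Rop7-I and Rop7-III and 760.37 to 837.26 TPM for Rop7-II T cells. None of the 4 FOXO and FOXP relatives was called at the limit in any pair, among them Foxp1 at 163.61 to 184.19 TPM over all samples. They are too few for this to stand apart from the shares of all genes given above.

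Bach2, the repressor that restrains effector genes, was lowest in Rop7-II T cells and missed the limit. It stood at 102.21, 100.75 and 98.98 TPM for Rop7-I, 82.64, 83.92 and 93.53 TPM for Rop7-II and 97.83, 97.06 and 99.58 TPM for Rop7-III T cells. All Rop7-II samples were below all others, and Rop7-I and Rop7-III T cells overlapped. The fold changes were 0.22 for Rop7-I against Rop7-II (adjusted p = 0.0125) and 0.18 for Rop7-III against Rop7-II T cells (adjusted p = 0.0205). Both passed without Rop7-II replicate 3, the Rop7-II sample nearest to the others, at 0.27 (adjusted p = 0.00139) and 0.23 (adjusted p = 0.00189). Rop7-I against Rop7-II T cells also passed with the B cell markers as a covariate. Rop7-III against Rop7-II T cells gave 0.15 with that covariate (adjusted p = 0.0399). Without Rop7-II replicate 1, the library with the most B cell markers, this pair also gave 0.15 (adjusted p = 0.0542). Bach1, its relative Nfe2l2 (NRF2) and the small Maf partners of BACH proteins gave 0 calls among 5 genes in each pair, with Nfe2l2 at 110.01 to 127 TPM over all samples. These genes too are too few to stand apart from the shares of all genes.

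Prdm1, encoding BLIMP-1, the repressor that ends the naive and memory programmes, was lowest in Rop7-III T cells. It stood at 2.15, 3.73 and 2.98 TPM for Rop7-I, 4.9, 2.82 and 3.24 TPM for Rop7-II and 1.38, 1.64 and 1.37 TPM for Rop7-III T cells. All Rop7-III samples were below all others, and Rop7-I and Rop7-II T cells overlapped. Rop7-III against Rop7-II T cells gave -0.89 (standard error 0.2, adjusted p = 0.0102), just outside the limit, and passed in 9 of 23 alternatives. Rop7-III against Rop7-I T cells gave -0.66 (adjusted p = 0.0547).

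The highest Prdm1 value again belonged to Rop7-II replicate 1, without which the first fold change was -0.71 (adjusted p = 0.0212). With a covariate it was -0.71 for the B cell markers (adjusted p = 0.00529) and -0.55 for the myeloid markers (adjusted p = 0.0797). Prdm1 is also a factor of plasma cells, whose 5 markers summed to 75.4 TPM for Rop7-II replicate 1 and to 30.1 to 49.2 TPM elsewhere, with Tnfrsf17 listed at 0 in every sample. Their part in the Prdm1 values was not tested.

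Zeb2, a repressor of terminal effector cells that is abundant in myeloid cells, exceeded 1 TPM in 1 sample only. It stood at 0.4, 0.87 and 0.77 TPM for Rop7-I, 2.96, 0.32 and 0.67 TPM for Rop7-II and 0.26, 0.28 and 0.28 TPM for Rop7-III T cells. All Rop7-III samples were below all others. Zeb2 passed the filter through Rop7-II replicate 1 alone, and no fit without that library tested it. No pair was called, and the sign of each fold change turned with the myeloid markers as a covariate: from -0.69 to 0.11 for Rop7-III against Rop7-II, from -0.39 to 0.03 for Rop7-III against Rop7-I and from -0.3 to 0.08 for Rop7-I against Rop7-II T cells. The 2 annotated genes that overlap Zeb2, Zeb2os and Mir5129, reached at most 1.09 TPM, and the libraries did not keep strand, so that reads of Zeb2os and Zeb2 cannot be told apart at these levels. Bach2os, which overlaps Bach2, reached at most 0.31 TPM, against at least 82.64 TPM for Bach2.

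**Figure D3:**
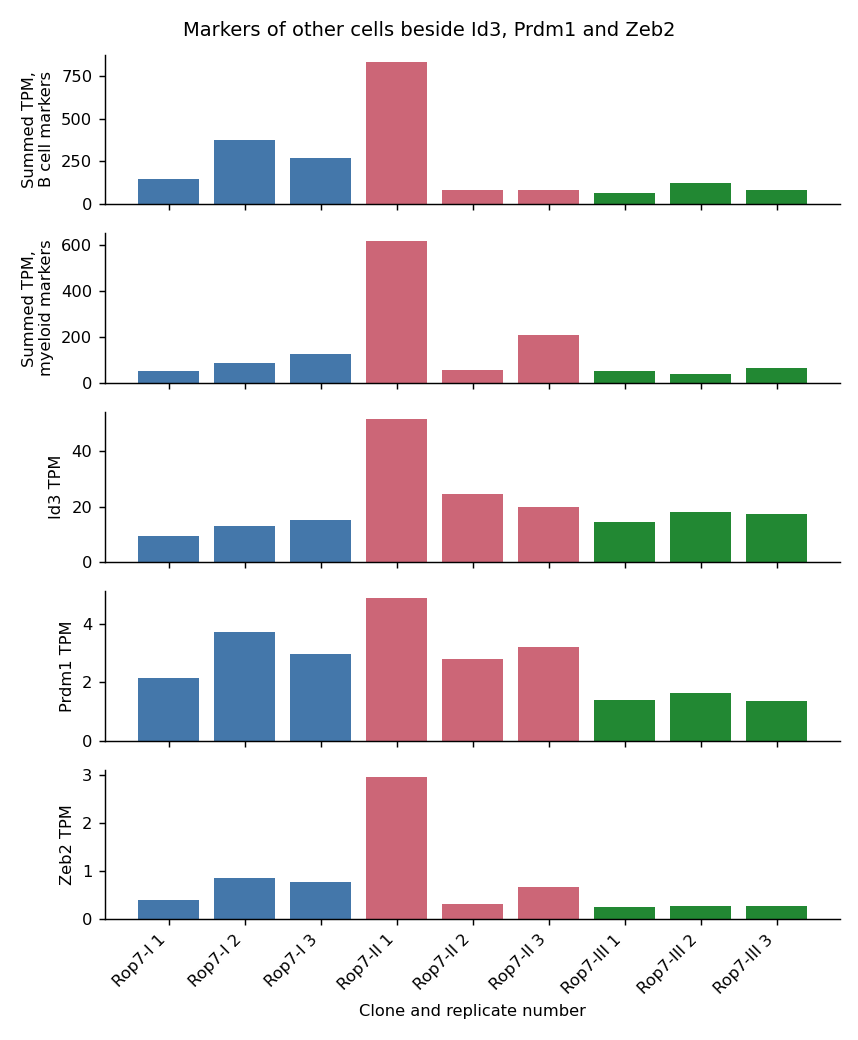
Summed TPM of 12 B cell markers and of 10 myeloid markers in each sample, above the TPM of Id3, Prdm1 and Zeb2 in the same samples (bars, 1 per sample, coloured by clone). Rop7-II replicate 1 has the highest bar in each of the 5 panels.

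Within the repressor group that holds the relative of Zeb2, 6 genes were tested. Zeb1, the relative that T cells express, was higher in Rop7-I than Rop7-II T cells (40.8 ± 0.19 against 31.2 ± 1.8 TPM (SD, n = 3), fold change 0.38, adjusted p = 0.00148). Zeb1 and Bach2 thus both had their lowest clone in Rop7-II T cells. Bcl6, the repressor that opposes BLIMP-1, was higher in Rop7-I T cells at 28.3 ± 4.08 TPM than in Rop7-II at 16 ± 1.84 TPM or Rop7-III T cells at 12 ± 1.5 TPM (SD, n = 3), with fold changes of 0.78 for Rop7-I against Rop7-II (adjusted p = 0.00332) and -1.17 for Rop7-III against Rop7-I T cells (adjusted p = 0.000564). The Ikaros factors diverged: Ikzf1 was higher (0.21, adjusted p = 0.00705) and Ikzf3 lower (-0.34, adjusted p = 0.000565) in Rop7-III than Rop7-II T cells, as they were in Rop7-I against Rop7-II T cells (0.3, adjusted p = 0.00174, and -0.25, adjusted p = 0.00393). The call of Ikzf1 for Rop7-III against Rop7-II T cells was lost under 13 of 23 alternatives (adjusted p up to 0.0658, and among them each fit without 1 Rop7-II or Rop7-III sample). That of Ikzf3 for Rop7-I against Rop7-II T cells was lost under 8 (adjusted p up to 0.0197), and that of Bcl6 in the same pair under 6 (adjusted p up to 0.0183).

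Counted together, 2 of the 9 tested factors were called for Rop7-III versus Rop7-II T cells, 1 higher (Eomes) and 1 lower (Id2), where 12.3% of all tested genes were called, 6.39% higher and 5.89% lower. For Rop7-III versus Rop7-I T cells 1 was called, Foxo1, which was higher, beside 4.85% of all genes (2.58% higher and 2.28% lower). For Rop7-I versus Rop7-II T cells 1 was called, Eomes, again higher, beside 7.53% of all genes (3.67% higher and 3.85% lower). With a 2-fold minimum, Eomes alone remained, for Rop7-III against Rop7-II (1.7% of all genes) and Rop7-I against Rop7-II T cells (0.949%), and none for Rop7-III against Rop7-I T cells (1.06%). The F test across the 3 clones called Eomes (adjusted p = 0.000267), Id2 (adjusted p = 0.0021) and Foxo1 (adjusted p = 0.00573), 3 of 9, where 14.1% of all genes were called. With 9 factors, these counts are too small to stand apart from the shares over all genes. The median fold changes of the 9 were -0.08, -0.04 and -0.23 in the 3 pairs, against -0.02, 0 and -0.01 over all tested genes. These medians include Zeb2, which passed the filter through Rop7-II replicate 1 alone, and are not given without it, so that no shift of the factors is read from them.

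**Figure D4:**
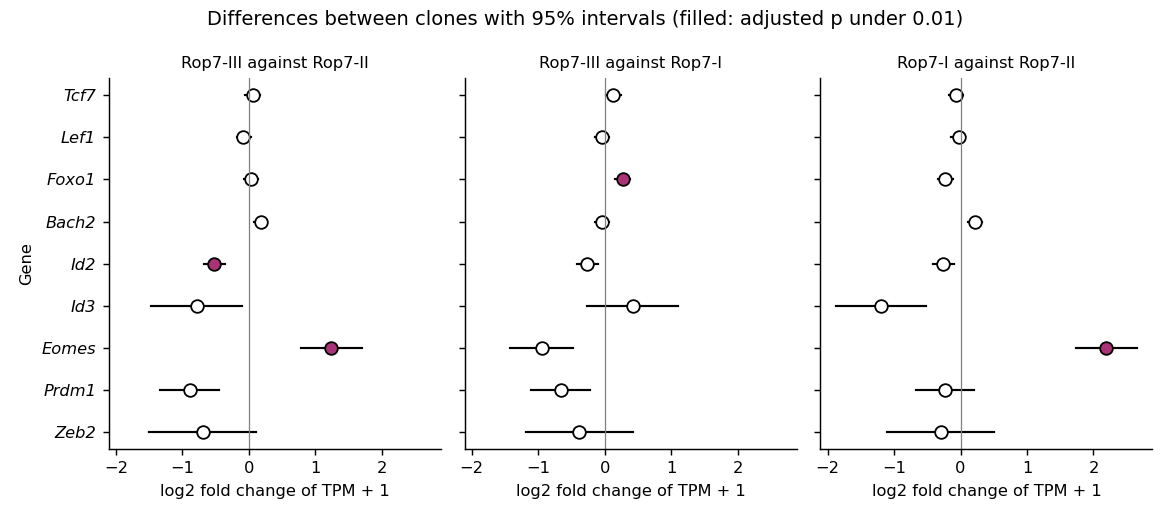
Fold changes of the 9 tested factors on the log2(TPM + 1) scale in the 3 pairs of clones, with 95% intervals from limma, drawn without adjustment for the number of genes. Filled points passed an adjusted p under 0.01: Eomes and Id2 for Rop7-III against Rop7-II, Foxo1 for Rop7-III against Rop7-I and Eomes for Rop7-I against Rop7-II T cells.

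The order of the clones by Cd5, a surface protein that reports reactivity to self, was Rop7-III at 178 TPM, Rop7-I at 67.6 TPM and Rop7-II at 41.4 TPM (means, n = 3). No factor had this order of means. Id2, Prdm1, Lef1 and Zeb2 had its reverse, with Rop7-II highest and Rop7-III lowest, of which Id2 alone was called between these clones. The order of Zeb2 rests on Rop7-II replicate 1 at 2.96 TPM. The other Rop7-II samples, at 0.32 and 0.67 TPM, lay below the Rop7-I mean of 0.68 TPM. For Lef1 the samples of the clones overlapped in each pair. Eomes, Bach2 and Tbx21 were highest in Rop7-I and lowest in Rop7-II T cells, Foxo1 and Tcf7 highest in Rop7-III and lowest in Rop7-I T cells, and Id3 highest in Rop7-II and lowest in Rop7-I T cells. Tbx21 was at 0.28 TPM or less and not tested, so that its order, like that of Lef1, says little.

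Other factors that work beside these 10 were followed from lists of relatives, partners and targets. Of 66 such genes, 57 were tested, and 14 were called for Rop7-III against Rop7-II T cells (24.6%, 11 higher and 3 lower), beside 12.3% of all genes. For Rop7-III against Rop7-I T cells 7 were called (12.3%, 5 higher and 2 lower), beside 4.85%, and for Rop7-I against Rop7-II T cells 14 were called (24.6%, 9 higher and 5 lower), beside 7.53%. The lists were chosen with earlier results of these data known and no set test was made, so that these shares are a description only. Among other effector and memory factors, Runx2 was higher in Rop7-III T cells at 14.4 ± 0.903 TPM, against 7.62 ± 0.783 TPM for Rop7-I and 5.75 ± 0.325 TPM for Rop7-II T cells (SD, n = 3), by 1.19 against Rop7-II (adjusted p = 3.14e-05) and 0.84 against Rop7-I T cells (adjusted p = 0.000473). Batf, an AP-1 factor of effector differentiation, and Stat4, the signal transducer of IL-12, were both lowest in Rop7-II T cells. Batf was at 21.2 ± 0.544 TPM there, against 35.5 ± 2.3 TPM for Rop7-I and 33.8 ± 0.88 TPM for Rop7-III T cells (SD, n = 3), and Stat4 was at 105 ± 12.7 TPM, against 176 ± 11 and 200 ± 3.51 TPM (SD, n = 3).

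Gata3, a zinc finger factor of T-cell development and type 2 responses, had the same lowest clone, with fold changes of 0.85 for Rop7-III against Rop7-II (adjusted p = 0.000636) and 0.56 for Rop7-I against Rop7-II T cells (adjusted p = 0.00783). The second call was lost under 11 of 23 alternatives (adjusted p up to 0.0352), among them each fit without 1 Rop7-I or Rop7-III sample. Hopx, a homeodomain protein of differentiated T cells, was at 8.69, 9.15 and 7.68 TPM for Rop7-I T cells, and at 0 to 1.11 TPM for Rop7-II and 0 to 0.53 TPM for Rop7-III T cells. Its fold changes were 2.72 for Rop7-I against Rop7-II (adjusted p = 0.000224) and -2.95 for Rop7-III against Rop7-I T cells (adjusted p = 0.000193). Hopx and Eomes were thus both highest in Rop7-I T cells, but Hopx did not separate Rop7-III from Rop7-II T cells (adjusted p = 0.561), as Eomes did. Klf3 (0.27, adjusted p = 0.00384) was higher in Rop7-III than Rop7-II T cells and Myc (0.48, adjusted p = 0.00465) higher in Rop7-I than Rop7-II T cells. The call of Klf3 was lost under 7 of 23 alternatives (adjusted p up to 0.0369), among them each fit without 1 Rop7-III sample, and that of Myc under 9 (adjusted p up to 0.023), among them each fit without 1 Rop7-I sample.

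**Figure D5:**
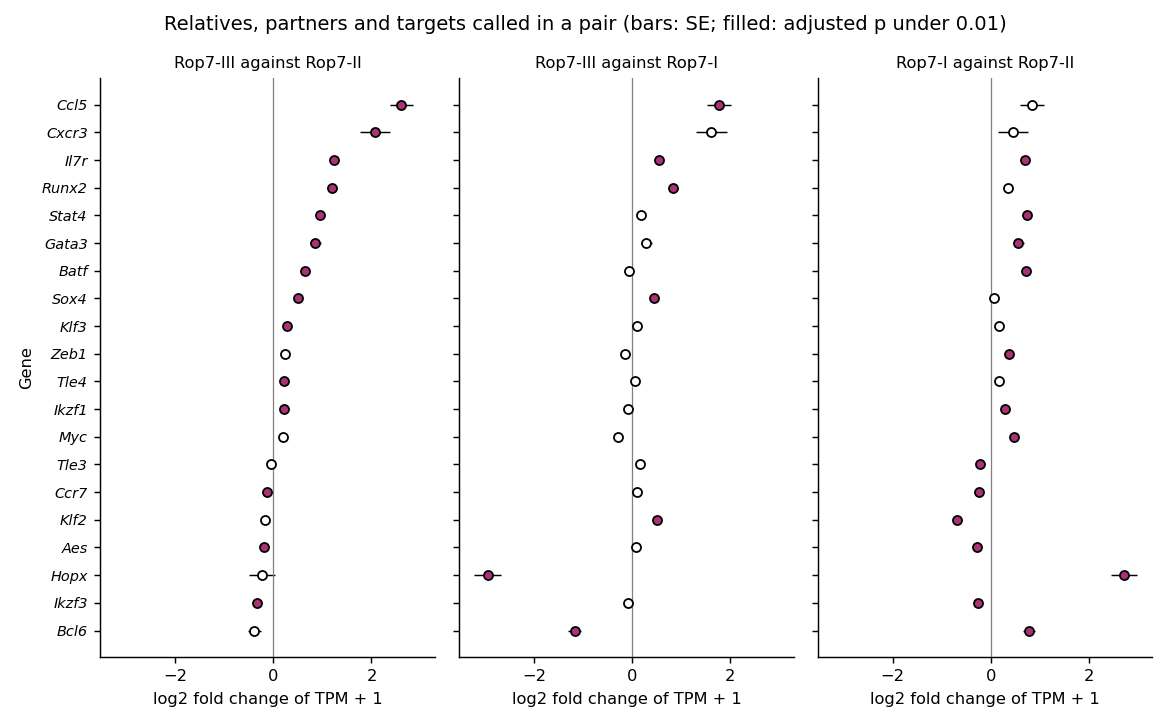
Fold changes on the log2(TPM + 1) scale of the 20 relatives, partners and targets that were called in at least 1 pair of clones, ordered by the first panel, with bars for the standard error and filled points for an adjusted p under 0.01. Ccl5 and Cxcr3 are farthest to the right in Rop7-III against Rop7-II T cells, and Hopx is far from 0 in both pairs that include Rop7-I T cells.

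Of 11 genes that T-bet and EOMES are known to activate, 6 were tested, and the others, among them Ifng, Klrg1 and Gzmk, stayed at or below 0.77 TPM in every sample. Ccl5, a chemokine of memory cells, was at 28.8 ± 2.12 TPM for Rop7-III, 7.74 ± 1.13 TPM for Rop7-I and 4.14 ± 2.12 TPM for Rop7-II T cells (SD, n = 3), with fold changes of 2.61 against Rop7-II (adjusted p = 8.99e-05) and 1.77 against Rop7-I T cells (adjusted p = 0.00174, and up to 0.0109 without Rop7-III replicate 2 or 3). Cxcr3 was called for Rop7-III against Rop7-II T cells at 2.07 (adjusted p = 0.00151). None of the 6 was called for Rop7-I versus Rop7-II T cells, the pair in which Eomes differed most, beside 7.53% of all genes. With 6 genes, a count of 0 does not stand apart from this share. The fold changes of the 6 in that pair ran from -0.19 for Prf1 to 0.84 for Ccl5 (adjusted p = 0.0403), with a median of 0.03 against -0.01 over all genes. Il2rb, the shared receptor chain for IL-2 and IL-15 and a target of both factors, was at 75.86 to 95.79 TPM over all samples and was not called.

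Genes that TCF-1, BLIMP-1 or BACH2 are known to repress gave 1, 0 and 1 calls among 7 tested in the 3 pairs, Gata3 in each case. Beside these, 12.3%, 4.85% and 7.53% of all genes were called, from which counts among 7 do not stand apart. The median fold change of the 7 was -0.43 for Rop7-III against Rop7-II and -0.42 for Rop7-III against Rop7-I T cells, beside -0.02 and 0 over all genes. Without Rop7-II replicate 1, 5 of the 7 were tested, and their medians were 0.07 and -0.42. Cx3cr1, a receptor of effector and myeloid cells, reached its highest value of 2.3 TPM for Rop7-II replicate 1 and was below 1 TPM in all other samples, Il1rl1 likewise reached 2.09 TPM there, and neither passed the filter without that library. Gzmb also had its highest value there, at 3.32 TPM. Gzma was at 5.09 TPM or less in every sample. The part of other cells in these medians was not tested.

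The 3 tested genes most like each factor called in the F test were found by Pearson's r of log2(TPM + 1) over the 9 samples, which share the libraries and the 3 clones. They were picked from the 12115 tested genes, for factors already called as different between clones, so that r is high by selection and a description only. For Eomes these were Ms4a4b (r = 0.981), BC094916 (0.978) and Rpl10a (0.978). Ms4a4b, a membrane protein of T cells, was at 1860 ± 61.5 TPM for Rop7-I, 1260 ± 87.9 TPM for Rop7-II and 1550 ± 17.7 TPM for Rop7-III T cells (SD, n = 3). For Id2 they were Dtx1 (0.983), Ap5b1 (0.977) and Arl4c (0.975), of which Dtx1, a ubiquitin ligase of the Notch pathway, was at 34.8 ± 5.96, 56.3 ± 5.01 and 20.4 ± 2.81 TPM for Rop7-I, Rop7-II and Rop7-III T cells (SD, n = 3). For Foxo1 they were Prex1 (0.993), Anapc2 (0.987) and Ppp6r1 (0.98).

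The promoters of the factors were searched for the letters that the factors themselves read, on both strands: CTTTGA (TCF-1 and LEF1), GTAAACA (FOXO), GGTGTGA (T-box), CAGGTG (an E-box read by E proteins and ZEB) and TGACTCA (BACH with Maf, and AP-1). The windows were the 300 bases from 250 before to 50 after each RefSeq start, 17 windows for the 10 genes, and no motif is contained in another, although CAGGTG and GGTGTGA can share letters where they meet. TCF/LEF letters were found in 2 of the 17 windows (Bach2 and Lef1), beside 16% of all 32851 mouse windows. FOXO letters were found in 2 of 17 (Prdm1 and Tcf7), beside 3.65%, E-box letters in 4 of 17 (Prdm1, Tcf7, Tbx21 and Lef1), beside 20.2%, BACH letters in 1 of 17 (Zeb2), beside 5.2%, and T-box letters in 0 of 17, beside 3.98%. The windows of Eomes, Id2, Id3 and Foxo1 held none of the 5.

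The 3 stretches below are shown as examples that carry, before a start, the letters of another of the factors or of the gene's own product. Zeb2 (BACH letters at 132 and 189 bases) and Tbx21 (E-box letters at 196 bases) also do and are not printed. All 3 of the starts shown lie inside the gene as GENCODE annotates it. The end of the window was found in a GENCODE transcript of the gene for Bach2 and Prdm1, but not for Lef1. The other Lef1 windows held no TCF/LEF letters. The stretches are the 250 bases before a start, from RefSeq on GRCm38.p6 and written in the direction of the gene, with motif matches in capitals. For Bach2 the stretch is chr4:32417185-32417434 (plus strand), with TCF/LEF letters on the opposite strand at 93 bases before the start. For Lef1 it is chr3:131156044-131156293 (plus strand), with TCF/LEF letters on the opposite strand at 180 and 120 bases. For Prdm1 it is chr10:44458749-44458998 (minus strand), with FOXO letters at 231 bases and E-box letters at 87 bases.
Bach2: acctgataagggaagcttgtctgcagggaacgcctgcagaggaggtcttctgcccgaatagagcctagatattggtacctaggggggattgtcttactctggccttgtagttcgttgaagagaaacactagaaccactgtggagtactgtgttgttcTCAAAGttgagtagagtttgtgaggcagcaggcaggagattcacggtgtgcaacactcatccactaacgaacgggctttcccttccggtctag
Lef1: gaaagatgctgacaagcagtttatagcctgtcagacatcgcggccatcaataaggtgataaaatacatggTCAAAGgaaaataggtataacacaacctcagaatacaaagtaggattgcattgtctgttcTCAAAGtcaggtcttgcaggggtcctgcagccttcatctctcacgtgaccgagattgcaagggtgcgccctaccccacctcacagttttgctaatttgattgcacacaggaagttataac
Prdm1: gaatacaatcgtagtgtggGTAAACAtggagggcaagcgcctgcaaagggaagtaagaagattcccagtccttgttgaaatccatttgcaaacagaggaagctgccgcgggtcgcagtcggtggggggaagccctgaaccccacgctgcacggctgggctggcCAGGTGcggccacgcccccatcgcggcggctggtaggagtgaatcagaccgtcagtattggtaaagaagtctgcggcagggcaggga
A match describes letters in the reference strain and no binding, which was not measured here. Bach2, with its single match for TCF/LEF, and Prdm1, with its match for FOXO, did not pass between any clones, as reported above, and Tcf7 and Lef1 were not called in any pair.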

How the data were processed

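RNA-seq was performed on 9 samples, 3 for each of 3 clones, taken from the labels. The authors aligned reads to RefSeq genes of mm10 with RSEM 1.2.11 and deposited TPM per gene and sample, and each sample summed to between 1000000 and 1000001 TPM. TPM keep no depth, and the authors' count test (DESeq2 1.8.1) does not apply to them. Here log2(TPM + 1) of genes above 1 TPM in at least 1 sample, the authors' filter, was compared with limma 3.58.1 in R 4.3.3, in 1 fit of all samples whose spread followed mean expression. P values were adjusted within each pair over 12115 genes, with a limit of 0.01. The fit was tested on simulated data. The 10 factors, the gene lists and the alternatives were chosen with earlier results of these data known. Genes named were the factors, up to 5 called genes per list and pair, or 2 of the most abundant where none was called, and those most alike or nearby. Tcf12, Il2rb, S1pr1, Cx3cr1, Il1rl1, Gzma, Gzmb, Ctnnb1, Cd5 and the genes that were not tested were named after their values were seen. Gene positions are from GENCODE on GRCm38. The alternatives were other pseudocounts (0.1 and 0.5), filters, normalizations, spread models, limits, a replicate block, covariates and each sample left out. The myeloid covariate and the list medians without Rop7-II replicate 1 were chosen after seeing the data. A gene of the list of FOXO1 targets is not reported here and was left out of its counts.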

Additional observations from a re-analysis of the deposited data

How the results depend on the processing

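Eomes for Rop7-I against Rop7-II T cells was called under each alternative, and Id2 for Rop7-III against Rop7-II T cells under each but the 2-fold minimum. The number of factors called was 2 for Rop7-III against Rop7-II, 1 for Rop7-III against Rop7-I, 1 for Rop7-I against Rop7-II T cells and 3 in the F test. For Rop7-III against Rop7-II T cells it was 1 with the myeloid covariate, 4 at an adjusted p under 0.05 and 1 with the 2-fold minimum, and 1 to 3 when a sample was left out. For Rop7-III against Rop7-I T cells it was 0 with no filter, with a median shift, with no trend, with the myeloid covariate and with the 2-fold minimum, 2 with sample weights or only the 2 clones fitted, 3 at an adjusted p under 0.05, and 0 to 2 when a sample was left out. For Rop7-I against Rop7-II T cells it was 2 when each sample had to reach 1 TPM, with sample weights or with the myeloid covariate, 4 with the B cell covariate, 5 at an adjusted p under 0.05, and 1 to 2 when a sample was left out. In the F test it was 5 with the B cell covariate, 6 at an adjusted p under 0.05, and 1 to 4 when a sample was left out, the 1 without Rop7-III replicate 1. The causes were not tested.

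Over all genes, the count for Rop7-III against Rop7-II T cells (1488) was 799 with the myeloid covariate, 939 with only 2 clones fitted, 3041 at an adjusted p under 0.05, 206 with the 2-fold minimum and 834 to 1315 when a sample was left out. For Rop7-III against Rop7-I T cells (588) it was 1062 with sample weights, 926 with only 2 clones, 1586 at 0.05, 128 with the 2-fold minimum and 258 to 830 when a sample was left out. For Rop7-I against Rop7-II T cells (912) it was 600 with no trend, 433 with only 2 clones, 2163 at 0.05, 115 with the 2-fold minimum and 416 to 875 when a sample was left out. The F test (1707) gave 3639 at 0.05 and 1007 to 1717 when a sample was left out. Relatives, partners and targets called were 25 at 0.05 and 4 with the 2-fold minimum (main 14, 10 to 14 when a sample was left out) for Rop7-III against Rop7-II, 11 with sample weights, 16 at 0.05 and 3 with the 2-fold minimum (main 7, 4 to 9) for Rop7-III against Rop7-I, and 9 with only 2 clones and 1 with the 2-fold minimum (main 14, 9 to 14) for Rop7-I against Rop7-II T cells.

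No fold change that was called turned its sign. Of those not called, Tcf7 for Rop7-III against Rop7-II T cells went to -0.01 with the myeloid covariate, and Foxo1 to -0.01 with the B cell and -0.05 with the myeloid covariate and -0.02 without Rop7-II replicate 1 (-0.02 to 0.06 when a sample was left out). Lef1 for Rop7-I against Rop7-II T cells went to 0.04 with quantile normalization and 0.02 without Rop7-II replicate 2 (-0.07 to 0.02 when a sample was left out). Zeb2 went to 0.11, 0.03 and 0.08 in the 3 pairs with the myeloid covariate, and to 0.18 for Rop7-III against Rop7-I T cells with the B cell covariate. Zeb2 was not tested without Rop7-II replicate 1 or when each sample had to reach 1 TPM.

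Replicate numbers were not taken to pair the samples: of 9 pairs of samples with the same number, the deviations from the clone means correlated over 0.1 in 1 (r from -0.39 to 0.11). With the number as a replicate block, the factors called were 2, 0 and 1 in the 3 pairs, Foxo1 for Rop7-III against Rop7-I T cells having an adjusted p of 0.016, and 373 genes in all were called in that pair.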
